A study of Caenorhabditis elegans with 4 samples.

Results

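FKH-10 binding on chromosome V of the nematode Caenorhabditis elegans was described by the 289 peaks that the series list places on that chromosome, of 1838 peaks on all 6 chromosomes. The members were chosen by chromosome alone, with no limit on the strength of a peak, and all 289 were used. Chromatin was collected with an anti-GFP antibody from late embryos of strain OP337, hermaphrodites grown at 20 °C, which are unc119(ed3) mutants carrying wgIs377, a transgene that joins fkh-10 to TY1 EGFP FLAG and also holds unc119. The ChIP samples and the inputs share this genotype, made by particle bombardment and outcrossing, so no library of worms without the tag enters the comparisons. The series has 4 samples, 2 FKH-10 ChIP samples (replicates 1 and 2) and 2 inputs of total chromatin DNA. Each ChIP replicate has a peak list of its own, with 109 of 711 peaks on chromosome V in replicate 1 and 60 of 439 in replicate 2. The inputs have no list and enter no comparison.

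Forkhead proteins bind DNA through a winged-helix domain and act as transcription factors in development. In ChIP-seq, DNA that was crosslinked to the tagged protein is sequenced, and a peak is an interval where reads of the ChIP exceed those of a control. Chromosome V is an autosome of C. elegans with no localized centromere. As on the other autosomes, its centre is rich in conserved and essential genes, whereas its arms hold more repeats and more recombination, and large families of chemoreceptor genes lie on this chromosome. Positions below are those of build WS220, the build of the peak lists. No gene names are attached to peaks, since no annotation of that build was used.

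Each peak carries 1 value, read here as the q-value of the authors' peak caller, with low values for strong peaks. It was used to rank peaks within a list. A rank is counted over the whole list, from 1 for the lowest q. The number of reads behind each list is unknown, so neither the number of peaks nor the width of a peak can be set against depth. Intervals are exact (Clopper-Pearson) 95% binomial intervals for shares and order-statistic intervals for medians. They cover counting error only, and neighbouring peaks are not independent. With 1 list for each replicate and no second condition, no test between groups exists and no p-value is given. The labels do not say whether separate cultures were used for the replicates, and what separates their lists may thus be technical.

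Peaks on chromosome V were thinly spread, with a median width near that of the other chromosomes together. Their median width in the series list was 227 bp (interval 200 to 247 bp) with quartiles of 156 and 342 bp, beside a median of 231 bp on the other chromosomes. The list gave 13.8 peaks and 4.21 kb of called bases per Mb of chromosome V. Of the other chromosomes, I had 9.56 peaks per Mb, IV 18.3, X 21.1, II 22.1 and III 27.4, so V stood between I and IV. In called bases per Mb, V was the lowest of the 6 chromosomes in each of the 3 lists. For the series list the next lowest was I with 5.64 kb per Mb, and V had 1.56 kb per Mb in replicate 1 and 1.03 kb per Mb in replicate 2. Per Mb, replicate 1 had 5.22 peaks on V and replicate 2 had 2.88. Both replicates placed fewer peaks per Mb on V than on II, III, IV and X, and more than on I. Replicate 2 peaks on V were wider, with a median of 311.5 bp (interval 261 to 362 bp) against 207 bp (interval 184 to 228 bp) in replicate 1. Of the series peaks on V, 8 (2.77%) were 1000 bp or wider, beside 2.56% of the whole list. The wide span described below holds 6 of these 8. Peaks under 50 bp numbered 22 on V (7.61%), beside 7.83% of the whole list. Of these 22, 20 overlapped no replicate peak, beside 131 of 144 over the whole list. The lowest-q 10% of the series list held 22 peaks of V as well, which is 7.61% of the V peaks beside 9.96% of the whole list. Outside the span it held 20 of 280 (7.14%).

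A minority of the series peaks on V was seen in both replicates. An overlap of at least 1 bp was counted. Both replicates had a peak under 40 of the 289 (13.8%, interval 10.1 to 18.4), beside 15.1% over the whole series list. Another 54 (18.7%, whole list 18.9%) overlapped replicate 1 alone and 20 (6.92%, whole list 6.58%) overlapped replicate 2 alone. The remaining 175 (60.6%, interval 54.7 to 66.2) overlapped neither, beside 59.4% over the whole list. The make-up of the V peaks by replicate overlap was therefore close to that of the whole list in each of the 4 classes, with the whole-list share inside the interval for V. For comparison, the share found in both replicates was 4.17% on I, 13.2% on IV, 14.6% on III, 16.02% on II and 21.8% on X.

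The overlap of the replicates on V depended on the list from which it was counted. Of the 60 replicate 2 peaks, 40 (66.7%, interval 53.3 to 78.3) overlapped a replicate 1 peak, beside 69.7% over the whole list of replicate 2. Of the 109 replicate 1 peaks, 40 (36.7%, interval 27.7 to 46.5) overlapped a replicate 2 peak, beside 43.5% over its whole list. The strongest peaks on V were mostly shared. The 10 lowest-q peaks of replicate 2 on V were all shared, and 19 of its 20 lowest-q peaks were. In replicate 1, 7 of the 10 and 14 of the 20 were shared. Outside the wide span these numbers were 10 and 17. The 3 of the 10 that replicate 2 lacked were in the span. They were 18719842 to 18721384 (rank 60), 18723029 to 18724503 (rank 63) and 18721645 to 18722714 (rank 90). Others of the 20 that replicate 2 lacked lay outside it, at 16355795 to 16356211 (rank 135), 18400306 to 18400678 (rank 153) and 1871666 to 1872018 (rank 160). The strongest replicate 2 peak with no replicate 1 partner, at 10716871 to 10717373, ranked 122 of 439. The series list has it at rank 285. These top counts were made on V alone, so whether V differs in them was not tested. Low q went with sharing in the whole lists too, by median position in percent of the q order. For replicate 2 it was 37.2 with a partner and 71.1 without, beside 44.1 and 88.2 on V. For replicate 1 it was 27.8 and 64.1, beside 29.7 and 53.7 on V.

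Support by the replicates lay in the stronger part of the V list. If the series list was made from the same ChIP samples, which the sources do not state, more overlap at low q follows in part from that. The peaks on V were ordered by q and divided into 10 groups of 28 or 29 peaks. Group 1 held 24 of 29 peaks that were in both replicates, 5 in replicate 1 alone and 0 in neither. In group 2, 10 of 29 peaks were in both, in group 3 it was 5, and in group 4 it was 1. From group 5 on, 0 of the remaining 173 peaks were in both. The whole series list had the same course, with 88.6%, 45.7%, 11.4% and 0.543% of peaks in both replicates in its first 4 groups by q and at most 1.09% in each later one. The last peak in both replicates on V had series rank 624 of 1838. Groups 8 to 10 held 86 peaks, of which 1 overlapped a replicate peak. Replicate 2 alone was most frequent in groups 3 and 4, with 8 and 7 of 29 peaks, where the q-values ran from 2.29e-07 to 1.82e-05.

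**Figure D1:**
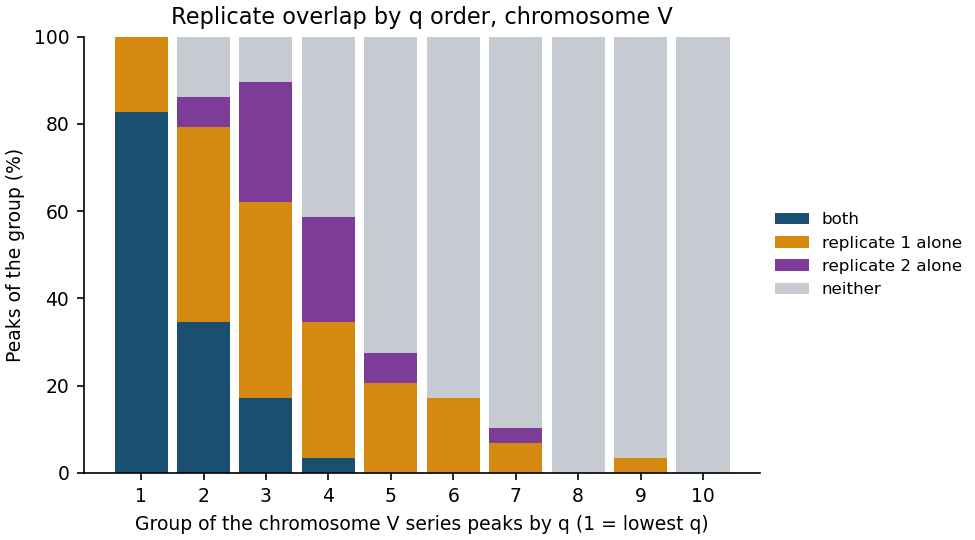
The chromosome V series peaks are ordered by q and divided into 10 groups (x axis, 1 is the lowest q), and bars give the percent of each group that overlaps both replicates, 1 replicate alone or neither. The share in both replicates is 82.8% in group 1, 34.5% in group 2, 17.2% in group 3 and 0 from group 5 on.

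Peaks in both replicates were wider than the others. Their median width was 402.5 bp (quartiles 317 and 570.5 bp), against 297 bp for replicate 1 alone, 298 bp for replicate 2 alone and 191 bp for neither. The quartiles of the last class were 106.5 and 254.5 bp, so its upper quartile lay under the lower quartile of the class in both. Outside the wide span the medians for both and for neither were 400.0 and 187 bp. Over the whole list the medians were 436.5 bp for both, 243 bp for replicate 1 alone, 299 bp for replicate 2 alone and 189.5 bp for neither. No peak in both replicates was under 50 bp, on V or over the whole list. Width and q both come from the reads of the same call, and their order by class is a description of the list.

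**Figure D2:**
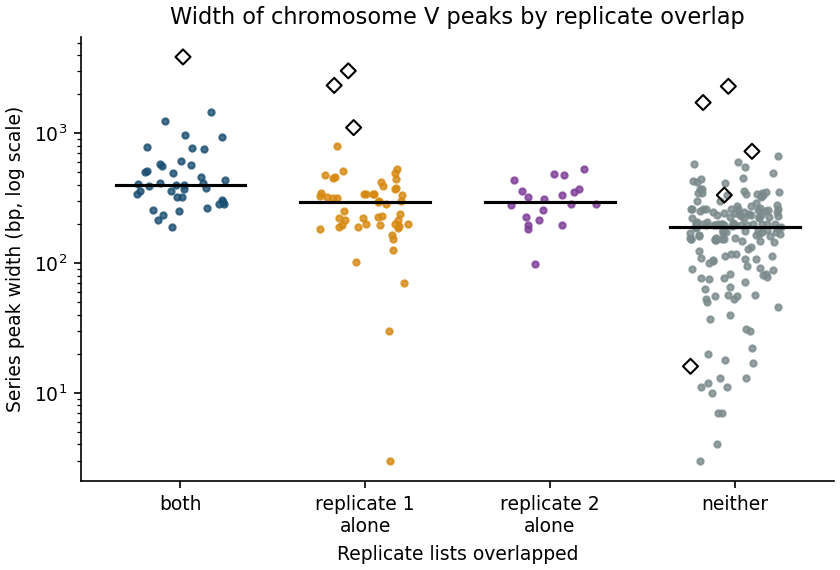
Each point is a chromosome V series peak, placed by the replicate lists it overlaps (x axis) and its width in bp (y axis, log scale), with a bar at the median of the class and open diamonds for the 9 peaks of the wide span. The medians are 402.5, 297, 298 and 191 bp from left to right, and nearly all peaks under 50 bp are in the class that overlaps neither replicate.

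The wide span, from 18704.4 to 18726.1 kb, was taken apart from the rest of the chromosome. It covers 21.721 kb, or 0.104% of the length of V, and holds 9 of the 289 series peaks but 17.6% of the bases called on V in the series list. The span was located as the run of neighbouring series peaks on V with the most called bases. Its large share in the series list follows in part from that choice. Replicate 1 had 27.2% of its V bases there, and replicate 2 had 1.19%. The called bases of the span were 15.452 kb for the series list, 8.839 kb for replicate 1 and 0.255 kb for replicate 2. Replicate 1 thus covered 34.7 times as many bases as replicate 2 inside the span, and 1.11 times as many outside it. Among windows of 5% of the length, the replicates differed most in called bases in the window with the span, which had 9.212 kb in replicate 1 and 0.54 kb in replicate 2.

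Inside the span the series list has a left run of 4 peaks and, after its longest gap of 3247 bp, a right run of 5. The left run starts with a peak of 2339 bp that ends at 18706702 (series rank 342), which overlaps the replicate 1 peak at 18704522 to 18706450 (rank 231). The next peak, 18707013 to 18709313, is 2301 bp wide with series rank 335, and it overlaps no peak of either replicate. It is followed by 18709682 to 18710407 (rank 1822) and 18710887 to 18712611 (rank 971), which also overlap neither. In the left run the series list therefore called 7.091 kb, replicate 1 1.929 kb and replicate 2 nothing.

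By q in the series list, the right run holds the strongest peaks of the chromosome. In each replicate list the strongest V peak lay outside the span, under the series peak at 5284005 to 5285459. The right run opens with 18715859 to 18716964 (1106 bp, series rank 750), which matches the replicate 1 peak at 18715882 to 18716981 (rank 249). The lowest series q of V belongs to 18717420 to 18721295, 3876 bp wide, with q 3.86e-28 and series rank 23. It overlaps 2 replicate 1 peaks, at 18717848 to 18719569 (rank 42) and 18719842 to 18721384 (rank 60), and the replicate 2 peak at 18718798 to 18719052. That replicate 2 peak is the sole call of replicate 2 in the span, 255 bp wide and ranked 418 of 439. The next series peak, 18721656 to 18724684 (3029 bp, q 1.11e-26, series rank 25), overlaps 2 replicate 1 peaks and none of replicate 2. The run closes with 18725208 to 18725541 (rank 1539) and a peak of 16 bp that starts at 18726069 (rank 1726), which neither replicate has. All 4 series peaks of the span with replicate overlap thus overlap replicate 1, and 1 of them also overlaps replicate 2. The nearest series peaks outside lie 213.6 kb to the left and 82.6 kb to the right.

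**Figure D3:**
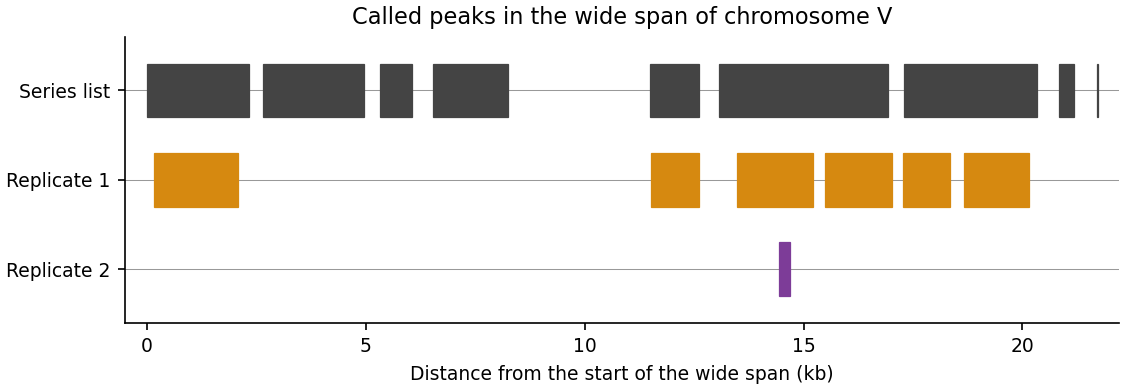
Boxes are the called peaks of the series list and of each replicate over the wide span of chromosome V, drawn to scale against the distance from its start in kb. The series list has 9 boxes over 15.452 kb and replicate 1 has 6 over 8.839 kb, while replicate 2 has 1 box of 0.255 kb under the widest series peak.

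Outside the span, the 20 lowest-q series peaks that both replicates share had series ranks from 26 to 176, with a median width of 498 bp. Their ranks ran from 19 to 621 in replicate 1 and from 7 to 292 in replicate 2. The midpoints of the replicate peaks lay between 1 and 252.5 bp apart, with a median of 57.5 bp. Of these 20 peaks, 9 were in the centre of the chromosome, 8 in its left arm and 3 in its right arm, where arms and centre are equal parts of the length (33.3% or 6.96 Mb each).

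In the left arm the strongest was 5284005 to 5285459, which was also the widest series peak of that arm at 1455 bp. Its series rank was 29 (q 2.46e-24), and it ranked 19 in replicate 1 and 7 in replicate 2, the best rank of any V peak in either replicate. It was followed by 6227287 to 6228260 (974 bp, series rank 51), with ranks of 96 and 51 in replicates 1 and 2. The peak at 5049398 to 5049892 (series rank 55) ranked 48 in replicate 2 and 213 in replicate 1. These 3 peaks had the lower rank number in replicate 2, whereas 4 others of the arm had the opposite order. The peak at 1151223 to 1151731 (series rank 100) ranked 110 in replicate 1 and 199 in replicate 2. The peak at 264909 to 265845 (937 bp, series rank 173) ranked 31 in replicate 1 and 67 in replicate 2. Since the list of replicate 2 is shorter, a lower rank number in it is no sign of a stronger peak. Near the left end of the chromosome, 8553 to 9159 had series rank 167, rank 403 in replicate 1 and rank 143 in replicate 2. The peak at 1868650 to 1868957 (series rank 148) ranked 164 in replicate 1 and 220 in replicate 2. The narrowest of the 20, at 236 bp, was 4731485 to 4731720 (series rank 176), with ranks of 192 and 219 in replicates 1 and 2.

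In the centre the strongest was 12303418 to 12303813, 396 bp wide, with the lowest series q outside the span (8.37e-25, series rank 26). It ranked 44 in replicate 1 and 33 in replicate 2, and both replicates called it at a width of 347 bp with an offset of 24 bp. The widest of the centre was 9343271 to 9344503 (1233 bp, series rank 39). It was called over 502 bp in replicate 1 (rank 157) and 723 bp in replicate 2 (rank 40), so neither replicate covered the whole of the series peak. The pair at 11782760 to 11783197 (series rank 49) and 8500360 to 8500730 (series rank 53) ranked 78 and 58 in replicate 1, and 62 and 73 in replicate 2. The peak at 9768938 to 9769723 (786 bp, series rank 79) had the largest distance of the replicate midpoints among the 20, at 252.5 bp. Replicate 2 called 722 bp of it at rank 44, while replicate 1 called 195 bp at its right side at rank 621. The other 4 were 11314012 to 11314422, 13391526 to 13392026, 9730964 to 9731523 and 13789066 to 13789832, with series ranks of 95, 118, 153 and 154. Their replicate ranks ran from 139 to 367 in replicate 1 and from 71 to 252 in replicate 2.

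The right arm had 3 of the 20. They were 19642993 to 19643353 (361 bp, series rank 70), 15873702 to 15874106 (405 bp, series rank 99) and 18967609 to 18967930 (322 bp, series rank 157). The first ranked 62 in replicate 1 and 188 in replicate 2, the next 131 and 130, and the last 114 and 292. The widest series peak of the right arm outside the span, 19636015 to 19636680 (666 bp, series rank 605), overlapped neither replicate. It lies within 10 kb of the peak at 19642993, in the same run of 3 peaks.

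Over all 40 pairs of replicate peaks on V, the median distance of the midpoints was 52 bp, and in 34 pairs it was at most 100 bp. Replicate 2 had the wider peak in 25 of the 40 pairs, and in 22 pairs the shorter peak lay wholly inside the longer. On the other chromosomes too, the median peak width was larger in replicate 2 (346 bp) than in replicate 1 (218.5 bp). Across these 40 pairs the percentiles of the q order in the replicates had a Spearman's rho of 0.475 and a Pearson's r of 0.427. The points are peaks that share both libraries and are not independent, so these values are a description. Pairs were compared on V alone, so whether V differs in these pair measures was not tested.

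**Figure D4:**
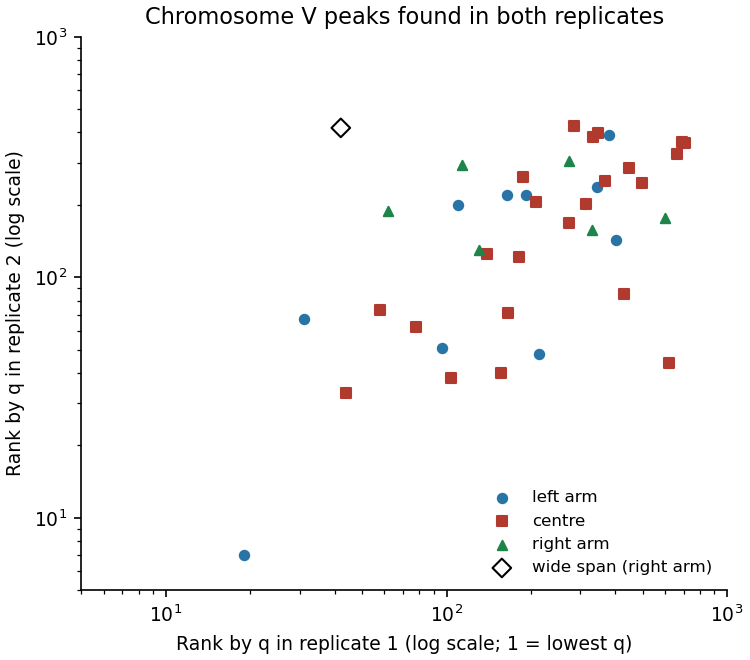
Each point is a place on chromosome V that both replicates called, plotted by its rank by q in replicate 1 (x axis, log scale) and in replicate 2 (y axis, log scale), for 40 pairs in the left arm, the centre and the right arm. The peak with ranks 19 and 7 stands lowest in both, and the open diamond of the wide span stands at rank 42 in replicate 1 and 418 in replicate 2.

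A few shared peaks had nearly the same edges in all 3 lists. For each of the 40 series peaks in both replicates, the largest offset of a replicate edge from the series edge was taken, a measure that, like the limit of 5 bp below, was chosen after the values were seen. Its median was 103.5 bp on V, beside 106 bp over the 278 such peaks of the whole list. In 3 of the 40 peaks all edges lay within 5 bp, and the next smallest offset on V was 25 bp. Over the whole list 8 of 278 peaks had all edges within 5 bp and the next smallest offset was 6 bp, so no gap sets these peaks apart there. The 3 on V were 5284005 to 5285459, 12509902 to 12510295 and 14769371 to 14769749. The peak at 12509902 (394 bp) had a largest offset of 2 bp, with rank 104 in replicate 1, rank 38 in replicate 2 and rank 461 in the series list. The peak at 14769371 (379 bp) had a largest offset of 5 bp, and ranked 329 in replicate 1, 157 in replicate 2 and 624 in the series list. It was the weakest series peak on V that both replicates share.

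Peaks on V lay more often in the centre of the chromosome than in either arm. For the length, 20868774, the last base under any peak of V was used, and peaks were placed by their midpoints. The left arm held 79 series peaks (27.3%), the centre 118 (40.8%, interval 35.1 to 46.7) and the right arm 92 (31.8%). The centre of the 5 autosomes together held 36.5% of their series peaks. Without the span the right arm had 83 peaks, and the centre held 42.1% (interval 36.3 to 48.2). Outside the span the density was 17.0 peaks per Mb in the centre, 11.4 in the left arm and 11.9 in the right arm.

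The replicates had the same order of centre over arms. In replicate 1 the centre held 49 of 109 peaks (45.0%, interval 35.4 to 54.8), and in replicate 2 it held 33 of 60 (55.0%, interval 41.6 to 67.9). The share over all autosomes was 40.3% in each of these lists. Chromosome IV had similar centre shares, with 53.1% for replicate 1, 53.7% for replicate 2 and 39.8% for the series list. On II, III and I the share in the series list was 35.3%, 32.6% and 33.3%. A centre above the arms was therefore seen on V and IV in all 3 lists. The V shares were not tested against those of other chromosomes.

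Called bases gave another order, because of the span. With it the right arm held 40.6% of the bases called on V in the series list and 42.6% of those in replicate 1, more than the centre (35.9% and 32.6%). Without it the right arm held 27.9% and 21.1%, and the centre 43.5% and 44.8%. In replicate 2, where the span is nearly empty, the centre held 55.2% of called bases with the span and 55.9% without it.

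Peaks in both replicates had a larger share in the centre than peaks in neither, with intervals that overlap. Of the 40 in both, 23 (57.5%, interval 40.9 to 73.0) were in the centre, 10 in the left arm and 7 in the right arm. Of the 175 in neither, 62 (35.4%, interval 28.4 to 43.0) were in the centre, 49 in the left arm and 64 in the right arm. Over the 5 autosomes together, the centre held 79 of 197 peaks in both replicates (40.1%) and 33.1% of those in neither. These totals include V. On the other autosomes the shares were closer, with 56 of 157 peaks in both (35.7%) and 232 of 712 in neither (32.6%). Read the other way, the share of V peaks found in both replicates was 12.7% in the left arm (interval 6.24 to 22.0), 19.5% in the centre (interval 12.8 to 27.8) and 7.61% in the right arm (interval 3.11 to 15.05). These intervals overlap too. Without the span the right arm of V had 6 of 83 peaks in both (7.23%). On IV the shares had the same order of centre over arms (9.43%, 18.1% and 10.5%). The centre instead had the lowest share on II (21.25%, 12.6% and 15.9%) and on III (17.9%, 13.0% and 13.1%). On I the right arm had the highest (3.51%, 4.17% and 5.13%).

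On a finer scale the number of peaks varied along the chromosome, with the densest windows in the centre and at the right end and thin places in both arms. By midpoint, 24 series peaks lay from 9 to 10 Mb and 26 from 11 to 12 Mb, the highest counts of any 1 Mb window, with 6 and 5 of them in both replicates. The last window, 0.869 Mb long, had 21 peaks or 24.2 per Mb, with 0 of them in both. The highest share in both replicates among the windows was from 12 to 13 Mb, with 5 of 15 peaks (33.3%). Over all of V the share was 13.8%, and over the whole list 15.1%. That window was picked as the highest among small counts, so its lead follows in part from that choice. By contrast 2 series peaks lay from 2 to 3 Mb, and neither replicate had a peak there. The longest stretch with no series peak was 980.2 kb, from 16708162 to 17688403. Replicate 1 had no peak over 2044 kb from 16356212 to 18400305, in the same arm. Replicate 2 had its longest empty stretch, of 2863 kb, in the left arm from 1868902 to 4731500.

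Among windows of 5% of the length, the number of peaks differed most between the series list and each replicate at the right end. The last 5% of the length held 22 series peaks, of which 20 overlapped neither replicate, 1 overlapped replicate 1 alone and 1 replicate 2 alone. Over all of V the share in neither was 60.6%, and over the whole list 59.4%. That window was picked after the counts were seen, and end windows of other chromosomes were not set beside it. The first 5% held 11, of which 2 were in both replicates and 7 in neither. The length ends at the last series peak by construction, whereas the left end is counted from base 1.

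**Figure D5:**
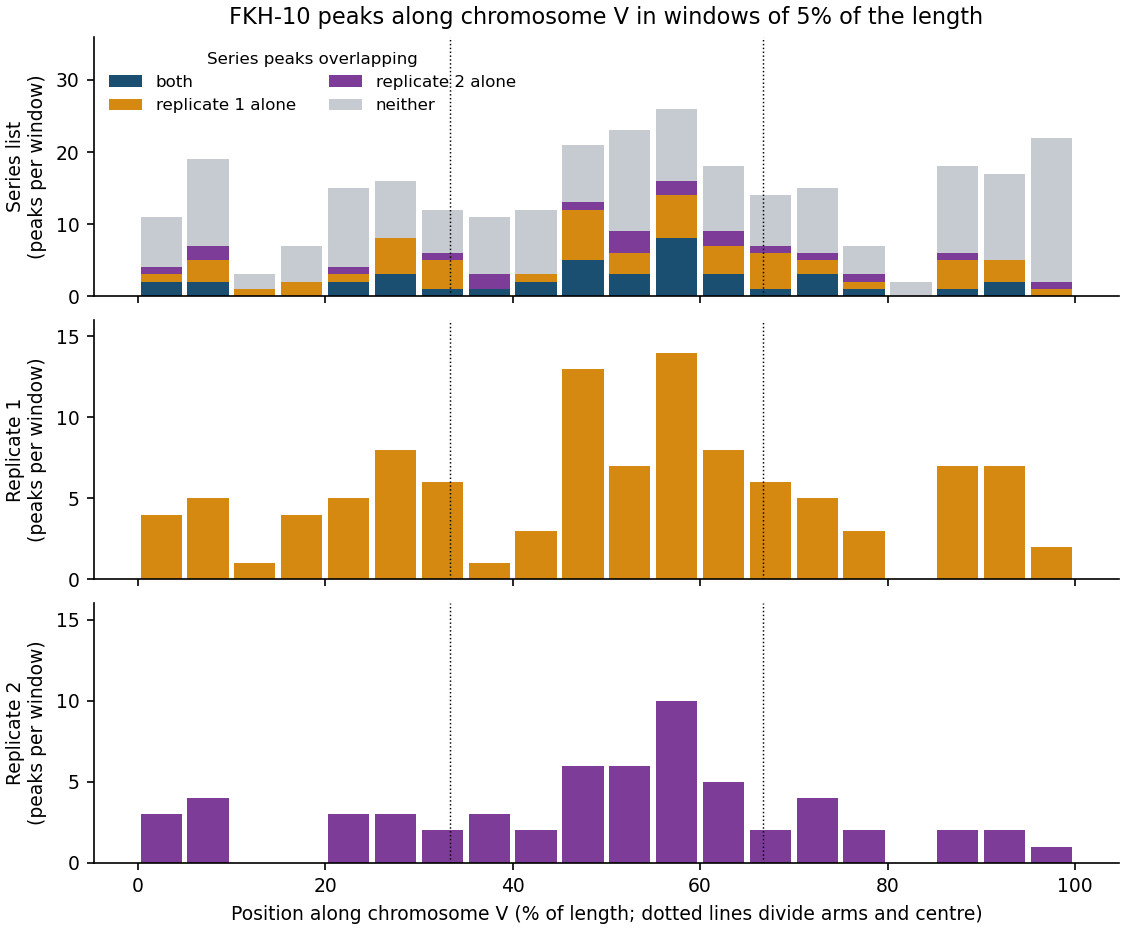
Bars count peaks of each list in windows of 5% of the length of chromosome V (x axis, percent of the length from the left end), with the series peaks divided by the replicate lists they overlap and dotted lines between arms and centre. The highest bars, of 26, 14 and 10 peaks in the series list, replicate 1 and replicate 2, stand in the same window from 55 to 60%, and the last window has 22 series peaks with 20 in neither replicate.

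Some neighbouring peaks on V lay close together. The gap between successive series peaks on V had a median of 37.0 kb (quartiles 6.14 and 97.2 kb), and 84 of the 288 gaps were 10 kb or shorter. Joining peaks across such gaps gave 205 units, of which 155 were peaks on their own and 50 were runs of at least 2 peaks. The span was the largest run, with 9 peaks, and 4 other runs had 5 peaks each. These were 1150321 to 1158574, 9964468 to 9978763, 19511136 to 19529445 and 20773632 to 20789453. The first of them has the peak at 1151223 named above and 1.224 kb called, and the other 3 had between 1.037 and 1.344 kb called. The span had 15.452 kb, but it was located as the run with the most called bases, so its lead here follows from that choice. Peaks in runs were in both replicates in 15 of 134 cases (11.2%, interval 6.40 to 17.8), and peaks on their own in 25 of 155 (16.1%, interval 10.7 to 22.9). The share in neither replicate was 60.4% in runs and 60.6% on their own. Gaps and runs were counted on V alone, so whether V differs from other chromosomes in them was not tested.

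Nearly all replicate peaks on V had a counterpart in the series list. All 60 replicate 2 peaks overlapped a series peak (whole list 96.4%). Of the 109 replicate 1 peaks, 96 (88.1%, interval 80.5 to 93.5) did, beside 93.5% over the whole list. The 13 without one were short, from 6 to 94 bp, and ranked between 423 and 694 of 711, and none overlapped replicate 2. The strongest of them was 11206844 to 11206932, at 89 bp. No place on V was called in both replicates and missed by the series list.

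In the other direction, a small number of well-ranked series peaks had no support. The strongest peak on V in neither replicate, picked out after its value was seen, was 14832331 to 14832929, 599 bp wide, with q 1.74e-08 and series rank 295. After the span peak at 18707013 came 5790942 to 5791140 (199 bp, series rank 364), 9930689 to 9930843 (155 bp, series rank 379) and 975098 to 975553 (456 bp, series rank 498). All other peaks in neither replicate ranked lower than these 5.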

How the data were processed

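ChIP-seq of GFP-tagged FKH-10 was carried out in late C. elegans embryos, with 2 ChIP samples and 2 inputs grouped by their titles. Worms were fixed in 2% formaldehyde, per the labels' protocols. The authors ran PeakSeq, per the source column of the deposited lists, on build WS220, per the file headers. Its version, the aligner, the threshold, the use of the inputs and how the series list was made: not given in the sources used here. The deposited value of each peak was read as a q-value, since in each list its product with the peak number never falls, and it was used for ranks within a list. No read counts were in the lists, so depth is unknown.

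Peaks were matched by an overlap of 1 bp or more. Arms and centre are 33.3% of the length each. The overlap, chain and median routines were tested on simulated data. Named peaks were those of the span, the 20 lowest-q peaks outside it in both replicates, the widest of each arm and of the centre, and replicate pairs missed by the series list, of which there were 0. The chromosome, the span and these rules were chosen with earlier results of these data known. No genome or annotation of WS220 was used, so no sequences or genes are given. The tools were scipy 1.17.1, numpy 2.4.6, pandas 2.3.3 and matplotlib 3.10.9 under Python 3.11.15.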

Additional observations from a re-analysis of the deposited data

How the results depend on the processing

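Of 41 alternative values, 26 stayed within the counting interval of the reported value and 15 moved. For the called bases of the span, that interval counts each base as an independent draw. Bases of the same peak are not independent, so for this measure the division into stayed and moved has little meaning. The settings tried were midpoints within 200 bp, 50% of the shorter peak as the least overlap, peaks of at least 50 bp, the lower-q 50% of the list, the chromosome without the span, chains as units, other measures of the centre and each replicate left out. In the lower-q 50% of the list, 27.6% of series peaks overlapped both replicates and 27.6% neither, 49.1% of replicate 1 and 90.0% of replicate 2 peaks overlapped the other, the median width was 318 bp and the span held 20.5% of called bases. The middle 50% of the length held 58.1% of series peaks. With overlap counted against the list of 1 replicate alone, between 20.8% and 32.5% of series peaks had support and between 67.5% and 79.2% had none, by construction. For the other measures the series list cannot be rebuilt without a replicate, so the lists of the replicates stand in for it. The centre then held between 45.0% (replicate 1) and 55.0% (replicate 2), the median width was between 207 bp (replicate 1) and 311.5 bp (replicate 2), and the span held between 1.19% (replicate 2) and 27.2% (replicate 1) of called bases. For the centre and the width, the replicate 1 values lay within the interval of the series value. No paired analysis was possible because peak lists exist here for the ChIP group alone, so nothing can be matched to the inputs by replicate number. Depth is unknown, so its part in the number of peaks was not tested.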
